A study of Mus musculus with 48 samples.

Results

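The 10 genes described here encode the machinery by which MHC class II molecules present peptides, and they were taken by gene symbol from a count table of 54532 genes made from mouse subcutaneous white adipose tissue (sWAT, inguinal depot). They are H2-Aa, H2-Ab1, H2-Eb1, Cd74, H2-DMa, H2-DMb1, H2-DMb2, H2-Oa, H2-Ob and Ciita, and all 10 passed the filter on low counts, among 19977 genes tested. The bulk RNA-seq held 48 libraries from C57BL/6 mice labelled as 8 months old. They form 12 groups of 4, made up of 2 diets and 6 times of day. Ad-lib mice had food at all times and twice-a-night (TAN) mice in 2 feeding windows of each night, males in both groups by the study's methods, with no other treatment or altered allele named for them. The labels number the libraries 1 to 4 within a group and do not tie them to cultures, cages or litters, so that every p-value below measures only the spread between these libraries.

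MHC class II molecules are heterodimers of an α and a β chain that show peptides from endosomes to CD4+ T cells. H2-Aa and H2-Ab1 encode the α and β chains of the H2-A molecule and H2-Eb1 the β chain of H2-E, whose α chain gene is inactive in C57BL/6 mice. Cd74, the invariant chain, occupies the groove until the H2-DM editor, built of H2-DMa and H2-DMb1 or H2-DMb2, exchanges its remnant for peptide, and H2-DO, built of H2-Oa and H2-Ob, restrains H2-DM and is found chiefly in B cells. Ciita is the coactivator without which these genes are hardly transcribed, and it acts through factors, RFX and NF-Y among them, that sit on the X and Y boxes upstream of their starts. B cells, dendritic cells and macrophages carry class II, and the inguinal depot holds resident macrophages and a lymph node rich in B cells.

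Total counts ranged from 15636378 to 29913310 per library, so that 3 counts, the most that a count of 0 allows, corresponded to 0.1003 to 0.192 CPM by library total. CPM values below were also scaled with the TMM factor of each library. Libraries differed widely in immune cell markers, also within groups of diet and time. The summed CPM of 12 B cell markers (Ms4a1, Cd79a, Pax5 and others) lay between 9.56 and 37.6 in 10 libraries and between 276 and 2198 in the other 38, and the limit of 100 CPM that separates them was chosen after the values were seen. The 10 libraries were 4 ad-lib (1 from 8 a.m., 2 from 12 p.m., 1 from 4 a.m.) and 6 TAN libraries (3 from 4 p.m., 1 from 8 p.m., 2 from 12 a.m.). Their summed macrophage markers (12 genes, C1qa, Adgre1 and Csf1r among them) were 407 to 1907 CPM, overlapping the 770 to 4324 CPM of the other 38. T cell markers summed to 7.91 to 31.2 CPM against 98.9 to 2279 CPM, lymph node stroma markers to 15.2 to 50.8 against 85.7 to 449 CPM, and dendritic cell markers to 63.9 to 156 against 109 to 655 CPM. No marker of these lists was at 0 in every library of either set, and the study's methods state that lymph nodes were left out where a stromal vascular fraction was isolated, without saying so for the RNA of these libraries. Adipocyte markers summed to 18848 to 44480 CPM in the 10 libraries and to 4273 to 35073 CPM in the 38, so that adipose tissue was present in all 48. Times below are those of the sample labels, under which Dbp, a clock output gene, had its highest mean at 4 p.m. in both diets. A table of the same animals that accompanies the paper lists each of the 48 libraries under a time 12 h away, as matched over 979 genes.

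The stretches of promoter in which the X and Y boxes of class II genes lie are shown for H2-Aa and H2-Eb1 of the classical chains, for both H2-DM β chains and for both H2-DO chains, so that each can be read beside its values. They come from RefSeq (GRCm38.p6) and run 5′ to 3′ on the gene's strand over the 90 bases that end 26 bases before the start annotated there. That start can differ from the one of the counted gene model. The stretches of H2-DMb1 and H2-DMb2 lie within the gene spans given below, and that of H2-Oa crosses its gene's first base. Capitals mark each exact match to the X1 box letters CCTAGNNAC or to the Y box letters CCAAT, searched on both strands (ATTGG on the other strand).
H2-Aa, chr17:34287849-34287938, minus strand: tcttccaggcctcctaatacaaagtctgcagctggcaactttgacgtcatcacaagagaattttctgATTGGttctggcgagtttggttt
H2-Eb1, chr17:34305752-34305841, plus strand: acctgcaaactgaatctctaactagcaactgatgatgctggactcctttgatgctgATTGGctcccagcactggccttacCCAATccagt
H2-DMb1, chr17:34153076-34153165, plus strand: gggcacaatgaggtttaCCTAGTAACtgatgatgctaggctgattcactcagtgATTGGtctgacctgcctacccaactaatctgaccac
H2-DMb2, chr17:34145134-34145223, plus strand: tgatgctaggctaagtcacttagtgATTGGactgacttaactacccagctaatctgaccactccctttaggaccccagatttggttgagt
H2-Oa, chr17:34092264-34092353, plus strand: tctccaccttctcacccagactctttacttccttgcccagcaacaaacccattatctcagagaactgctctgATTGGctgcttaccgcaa
H2-Ob, chr17:34238790-34238879, plus strand: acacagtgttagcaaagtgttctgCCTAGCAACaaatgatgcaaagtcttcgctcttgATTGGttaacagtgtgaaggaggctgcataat

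Over the 250 bases before the start, the Y box letters were found in 7 of the 7 members searched, in H2-DMa in 1 of its 2 promoters, and in 33.8% of all 32851 mouse promoters. The X1 box letters were found in 2 members, H2-DMb1 and H2-Ob, 28 and 25 bases before the Y box, against 3.37% of all promoters. Both motifs within 40 bases of each other occurred in 0.408% of promoters. H2-DMb1 and H2-DMb2 are neighbouring copies, and letters that follow the X1 box of H2-DMb1 (tgatgctaggct) open the H2-DMb2 stretch, so that the place of an X1 box lies just before what is printed. In the 250 bases searched for H2-DMb2 the exact X1 letters were not found. A match describes letters only, and H2-Ab1, Ciita and Cd74 were not searched.

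Except for Ciita (chr16:10480059-10528418) and Cd74 (chr18:60803848-60812646), the genes lie together in the MHC on chromosome 17 of GRCm38. H2-Oa (chr17:34092340-34095234), H2-DMa (chr17:34135182-34139101), H2-DMb2 (chr17:34143307-34151553) and H2-DMb1 (chr17:34153072-34160230) come first. H2-Ob (chr17:34238903-34245907), H2-Ab1 (chr17:34263209-34269418), H2-Aa (chr17:34282744-34287827) and H2-Eb1 (chr17:34305877-34316199) follow. Of the runs of 100 bases in their exons, H2-DMb1 shared 11.3% with H2-DMb2 and H2-DMb2 shared 10.3% with H2-DMb1, which makes the split of reads between this pair uncertain, and the other 8 members shared none with any other annotated transcript. Dexi overlaps Ciita, Brd2 overlaps H2-DMa and BC051537 overlaps H2-Oa on the opposite strand, Mir5107 lies within Cd74, and whether reads were counted by strand is not given in the sources used here.

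Per kilobase of gene length, Cd74 was the most abundant of the 10, with a median level of 1014 CPM per kb over the 48 libraries, followed by the chains H2-Eb1 (647), H2-Aa (578) and H2-Ab1 (466). The editor and modulator genes were far less abundant, with medians of 63.3 CPM per kb for H2-DMb2, 51.4 for H2-DMa, 42.7 for H2-Ob, 32.9 for H2-DMb1 and 25.3 for H2-Oa. Ciita was lowest at 2.64 CPM per kb. The order of the top genes held in nearly every library, Cd74 above H2-Eb1 in 47 of 48, H2-Eb1 above H2-Aa in 46 and H2-Aa above H2-Ab1 in 48. In the middle it did not hold as firmly, since H2-DMb2 exceeded H2-DMa in 30 libraries, H2-DMa exceeded H2-Ob in 42, H2-Ob exceeded H2-DMb1 in 32 and H2-DMb1 exceeded H2-Oa in 38. H2-Oa exceeded Ciita in 47 of 48 libraries.

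**Figure D1:**
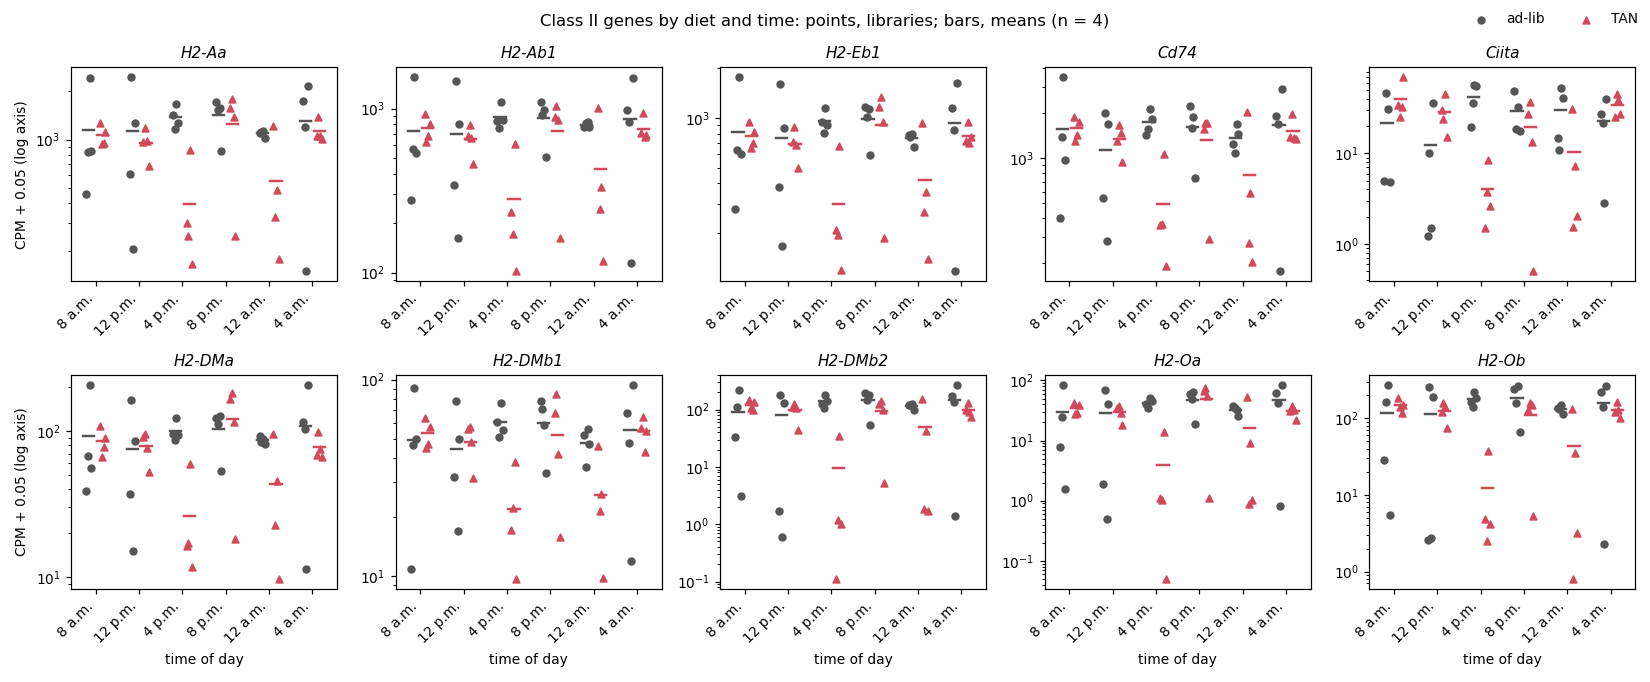
CPM plus 0.05 of each of the 10 class II genes (log axis, 1 panel per gene) in every library, by time of day, with ad-lib libraries as dark circles, TAN libraries as red triangles and bars at the means of 4. At 4 p.m. the 4 TAN libraries lie below the 4 ad-lib libraries for each gene, and single libraries of other groups lie far down as well, farthest for Ciita, H2-DMb2, H2-Oa and H2-Ob.

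The first question was whether feeding time altered these genes, and of the 6 times only 4 p.m. had members called. There, 5 of the 10 members, H2-Aa, H2-DMa, H2-DMb1, H2-Ob and Ciita, fell in TAN relative to ad-lib mice (adjusted p under 0.05 and at least 1 log2 unit), against 7.42% of all tested genes. The fitted log2 fold changes of the 10 ran from -1.48 to -3.88 with a median of -1.86, whereas the median of all genes was -0.09 with 53.6% of them below 0. All 10 members had an unadjusted p under 0.05 beyond the same fold limit, against 14.4% of all genes. For 10 of 10 members every TAN library was below every ad-lib library, which was so for 17.8% of all genes.

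Among the peptide-binding chains, H2-Aa was at 1421.5, 1156, 1677 and 1261 CPM in the ad-lib libraries 1 to 4 at 4 p.m. and at 299, 249.5, 863 and 167 CPM in the TAN libraries. TAN replicate 3 stood between the other 3 TAN libraries and the ad-lib group, and the groups did not overlap. H2-Aa fell by 1.80 on the log2 scale (SE 0.61, adjusted p = 0.0419 in edgeR's quasi-likelihood model). H2-Ab1, at 839.97, 757, 1092 and 856 CPM against 234, 173, 609.6 and 102 CPM, had a log2 fold change of -1.66 (SE 0.61, adjusted p = 0.0564). H2-Eb1 went from 944, 812, 1153.5 and 907 CPM to 210.1, 195, 680.4 and 119.6 CPM, a log2 fold change of -1.66 (SE 0.61, adjusted p = 0.0555). Neither passed the threshold that H2-Aa passed, and differences between the 3 chains in this response were not tested.

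Cd74, which chaperones these chains, had 1431, 1556, 2117 and 1821 CPM in ad-lib and 359, 366, 1065 and 192 CPM in TAN libraries at 4 p.m. (log2 fold change -1.81, SE 0.66, adjusted p = 0.0545). Again TAN replicate 3 stood apart from the other TAN libraries, and the value missed the threshold.

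Of the editor, H2-DMa fell by 1.92 on the log2 scale (SE 0.67, adjusted p = 0.0468), from 95.7, 85.9, 122 and 93.3 CPM to 16.2, 17.0, 59.6 and 11.7 CPM. H2-DMb1 fell by 1.48 (SE 0.51, adjusted p = 0.0448), from 60.6, 51.2, 75.7 and 55.2 CPM to 17.2, 22.0, 38.2 and 9.60 CPM, the smallest difference of the 10. Its copy H2-DMb2 had 126, 106, 182 and 142 CPM in ad-lib but 0.0610, 1.13, 35.3 and 0.949 CPM in TAN libraries. With 1 count in TAN replicate 1 and TAN replicate 3 apart from the rest, its log2 fold change of -3.88 carried an SE of 1.43 and an adjusted p of 0.0569 and missed the threshold.

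Of the modulator, H2-Ob fell by 3.87 on the log2 scale (SE 1.29, adjusted p = 0.0387), from 165, 142, 221 and 183 CPM to 4.76, 2.49, 37.0 and 4.19 CPM. H2-Oa had 39.9, 34.7, 50.3 and 44.6 CPM in ad-lib and 1.04, 0.973, 13.7 and 0 CPM in TAN libraries (log2 fold change -3.42, SE 1.3, adjusted p = 0.0639), which missed the threshold. Ciita fell by 3.37 (SE 1.02, adjusted p = 0.0267), from 19.3, 35.6, 57.7 and 55.2 CPM to 1.46, 3.73, 8.38 and 2.57 CPM. TAN replicate 3 was the highest of the TAN libraries for each of the 10 genes and also had the most B cell markers, 276 CPM against 9.56 to 37.6 CPM in the other 3.

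The count of 5 rested on single libraries. It was 10 without TAN replicate 3 and 0 without TAN replicate 1, 2 or 4 or without ad-lib replicate 3 or 4. It was 1 without ad-lib replicate 1 and 3 without ad-lib replicate 2. Calls over all genes were not counted in these fits or with DESeq2. DESeq2 called 10. Leaving out the 10 libraries poor in B cell markers leaves TAN replicate 3 alone in its group, which is taken to vary like the other groups. The members' log2 fold changes at 4 p.m. then ran from -0.50 for H2-Eb1 to -2.34 for Ciita, and no call is read from 1 library. The summed B cell markers were 1462 ± 388 CPM in ad-lib and 85.9 ± 127 CPM in TAN libraries at 4 p.m. (SD, n = 4 each). This is the smallest p that the exact permutation test allows with 4 against 4 (two-sided p = 0.0286), and after adjustment over 12 comparisons, markers of B cells and macrophages at 6 times, it was 0.343. Summed macrophage markers were 1950 ± 374 and 1033 ± 642 CPM (n = 4 each, exact permutation p = 0.0857, adjusted p = 0.343).

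At 12 a.m. all 10 members again had log2 fold changes below 0, from -0.83 for Cd74 to -1.63 for H2-Ob, and 0 passed the threshold (lowest adjusted p = 0.363), as did 0.135% of all genes. H2-Ob was at 137, 131, 149 and 114.8 CPM in ad-lib libraries at that time, and at 132, 0.753, 34.9 and 3.11 CPM in TAN libraries 1 to 4. The TAN libraries thus ran from the lowest H2-Ob level of the series, in replicate 2, to replicate 1 among the ad-lib values. At 8 a.m. and 12 p.m. the members' median was 0.08 and 0.10 on the log2 scale, and at 8 p.m. and 4 a.m. it was -0.23 and -0.24. No member was called at any of them, against 0.015%, 0.0901%, 7.03% and 0% of all genes in that order, and 0 members had an unadjusted p under 0.05 at these times or at 12 a.m. DESeq2 gave 0 calls at these 5 times as well.

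The mean TAN effect over the 6 times was below 0 for all 10, from -0.39 to -1.01 on the log2 scale. Adjusted p-values ran from 0.145 to 0.503, so that 0 members passed (5.42% of all genes did), and 5 had an unadjusted p under 0.05. A TAN effect that differed between times was called in 0 members (9% of all genes), with Ciita lowest at an adjusted p of 0.0896 and the only member with an unadjusted p under 0.05. Variation over time was called in 0 members in TAN (23% of all genes), Ciita again lowest at an adjusted p of 0.0810 and 3 members with an unadjusted p under 0.05, and in 0 in ad-lib mice (0.0551% of all genes), where every adjusted p was 0.99997. For each member the lowest TAN group mean was that of 4 p.m. Between the highest and lowest group means lay ratios of 2.51 for H2-DMb1 to 12.99 for H2-DMb2 in TAN mice, and of 1.28 for H2-Ab1 to 3.43 for Ciita in ad-lib mice.

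Spread within groups was large for all members. H2-Aa in ad-lib mice, for example, was 1142 ± 875 CPM at 8 a.m., 1135.5 ± 981 at 12 p.m. and 1309.8 ± 867 at 4 a.m. but 1092 ± 48.5 CPM at 12 a.m. (SD, n = 4 each). The 3 ad-lib groups with the large spread are those that hold libraries poor in B cell markers. Such libraries had the lowest H2-Aa at 12 p.m. and 4 a.m. but not at 8 a.m. There the library poor in B cell markers was at 846 CPM, between 459 CPM in replicate 1 and 2426 CPM in replicate 3. In these bulk samples, fewer cells of a type and less RNA per cell cannot be told apart.

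The second question was how much of each gene's level ran with the B cell markers and how much with the macrophage markers. The 10 libraries poor in B cell markers were set beside the other 38, and members differed in whether their ranges overlapped. Ciita, H2-DMb2, H2-Oa and H2-Ob did not overlap between the 10 libraries and the other 38. The share of all tested genes that part in this way was not computed. The summed T cell and lymph node stroma markers did not overlap either. H2-Ob was at 0.753 to 5.42 CPM (median 2.92) in the 10 and at 28.7 to 273 CPM (median 145) in the 38, a ratio of medians of 49.8. H2-DMb2 was at 0.0610 to 5.30 CPM (median 1.497) against 33.4 to 271 CPM (median 125), a ratio of 83.4.

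H2-Oa was at 0 to 1.86 CPM against 7.81 to 84.3 CPM, a ratio of medians of 38.8, and was at 0 in 1 library. Ciita was at 0.451 to 4.77 CPM against 4.92 to 69.5 CPM, a ratio of 17.4, so that its ranges nearly touched. The other 6 members overlapped between the 2 sets, and their ratios of medians were 3.22 (H2-DMb1), 4.36 (H2-Eb1), 4.70 (H2-Aa), 4.80 (H2-Ab1), 5.49 (H2-DMa) and 5.52 (Cd74). H2-Aa, for example, was at 150 to 846 CPM in the 10 libraries and at 459 to 2453 CPM in the 38. These are descriptions of libraries that were separated by their B cell markers, and no test was made of them.

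**Figure D2:**
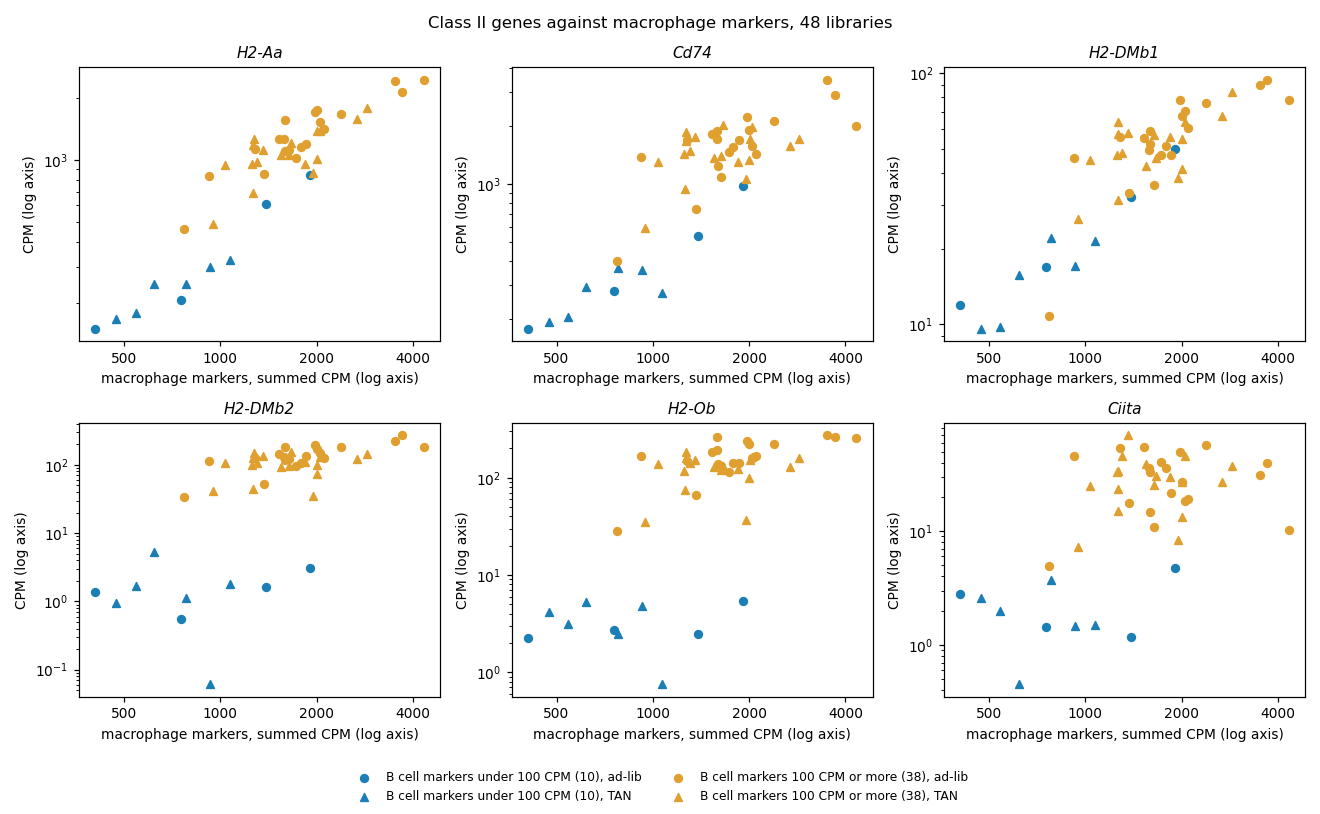
CPM of 6 class II genes against the summed CPM of 12 macrophage markers (both log axes), 1 point per library, with the 10 libraries under 100 CPM of B cell markers in blue, the other 38 in orange, ad-lib as circles and TAN as triangles. In the 10 libraries H2-Aa, Cd74 and H2-DMb1 climb with the macrophage markers, while Ciita, H2-DMb2 and H2-Ob stay low across them.

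Within the 10 libraries the 6 members whose ranges overlapped tracked the macrophage markers. Dendritic cell markers rose there as well, from 63.9 CPM in the library with 407 CPM of macrophage markers to 156 CPM in that with 1907 CPM. Which of these cell types the relations reflect was not tested. On the log2 scale Pearson's r with the summed macrophage markers was 0.98 for H2-Ab1 and H2-Eb1, 0.96 for H2-Aa, 0.94 for H2-DMa and H2-DMb1 and 0.93 for Cd74, with Spearman's rho between 0.85 and 0.99. All 6 passed after adjustment over 30 relations computed (highest adjusted p = 0.00016 for r and 0.0037 for rho, permutation test, n = 10). Such relations were computed for the members only, here and in the other 38 libraries. How many of all genes would pass was not tested. Without the 2 libraries farthest from the median of the macrophage markers, r was 0.85 for Cd74 and 0.89 to 0.98 for the other 5. H2-Oa lay between, with r 0.56 (permutation adjusted p = 0.10) and rho 0.68 (permutation adjusted p = 0.04). No relation passed for Ciita (r 0.12, rho -0.04), H2-DMb2 (r 0.09, rho 0.22) or H2-Ob (r -0.01, rho 0.13), for which the permutation adjusted p of r was 0.80 or more. The last 3 sat at 1 to 94 counts in these libraries, which limits any relation that could be seen. The 10 libraries come from both diets and all 6 times, and diet and time were not modelled in these relations.

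Within the other 38 libraries H2-Ob and H2-DMb2 tracked the B cell markers most closely, with r of 0.97 and 0.95 and rho of 0.89 and 0.88. For the remaining members r with the B cell markers was 0.73 to 0.86. With the macrophage markers it was highest for H2-Aa and H2-Eb1 (0.85), followed by H2-DMa and H2-Ab1 (0.82), H2-Oa and H2-DMb1 (0.73), Cd74 (0.66), H2-DMb2 (0.58) and H2-Ob (0.54). Each of these had a permutation adjusted p of 0.0006 or less for r and 0.012 or less for rho. Ciita alone showed no relation with the macrophage markers that passed (r 0.13, rho 0.03, permutation adjusted p = 0.49 and 0.91, n = 38), although its r with the B cell markers was 0.73 (rho 0.59). After the 2 farthest libraries were left out, each relation that passed was still there, at r of 0.48 or more.

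Both marker scores were then entered together into the model of the 12 groups of diet and time, so that each slope is the log2 change of a gene for 1 log2 unit of a score within groups, with the other score held. Slopes on the B cell score passed in all 10 members, against 23.9% of all genes with a positive slope. They were steepest for H2-DMb2 at 0.91 (95% interval 0.83 to 0.99), H2-Ob at 0.84 (0.78 to 0.89) and H2-Oa at 0.77 (0.68 to 0.86). Ciita stood at 0.55 (0.44 to 0.66). The other 6 lay between 0.16 for H2-DMb1 (0.10 to 0.23) and 0.30 for H2-DMa and Cd74, with H2-Aa at 0.26 (0.21 to 0.32).

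Slopes on the macrophage score passed in 8 of 10 members, against 8.1% of all genes with a positive slope. The order differed from that on the B cell score, with H2-Eb1 and H2-Aa at 0.92 (0.65 to 1.18 for H2-Aa), H2-Ab1 at 0.91, H2-DMb1 and Cd74 at 0.86, H2-DMa at 0.83 and H2-Oa at 0.74 (0.32 to 1.151). H2-DMb2 followed at 0.52 (0.19 to 0.86). The slopes of H2-Ob (0.26, 0.02 to 0.50, edgeR adjusted p = 0.126) and Ciita (-0.07, -0.62 to 0.48, edgeR adjusted p = 0.896) did not pass. Without the 10 libraries poor in B cell markers 4 macrophage slopes passed, and with the replicate number as a block 0 did. The share of all genes with a positive macrophage slope was not counted in those other fits, so their counts cannot be set beside it. In the main fit the median slope over all genes was near 0 on either score. The members' medians were 0.30 on the B cell and 0.85 on the macrophage score.

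**Figure D3:**
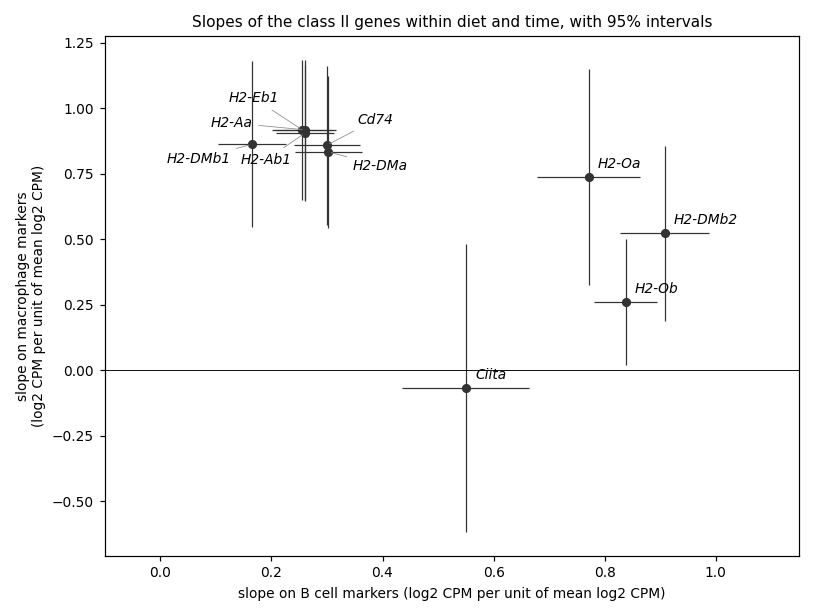
Fitted slope of each class II gene on the B cell marker score (x axis) and on the macrophage marker score (y axis), in log2 CPM per log2 unit of score over 48 libraries, with 95% intervals as lines. H2-DMb2, H2-Ob and H2-Oa have B cell slopes of 0.77 to 0.91, the 3 chains and Cd74 have macrophage slopes of 0.86 to 0.92, and the macrophage interval of Ciita spans 0.

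To express the same data as shares, each gene's CPM was fitted over the 48 libraries as a non-negative sum of a part that scales with the B cell markers, a part that scales with the macrophage markers and a constant. This is a description of covariation with marker sums and was not tested. In the model with both scores, 8 of 10 dendritic and 8 of 8 T cell markers had a positive B cell slope that passed. On the macrophage score 2 of 10 and 0 of 8 did, and 1 dendritic marker had a negative slope that passed on each score. The part of these cells in the shares was not tested. The B cell part was 86.1% of the fitted mean for H2-Ob (84.4% to 88.0% when each library was left out in turn), 85.8% for Ciita (83.9% to 88.2%) and 80.6% for H2-DMb2 (78.8% to 83.6%).

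H2-Oa at 58.1% and Cd74 at 56.6% were intermediate. The chains had B cell parts of 43.4% (H2-Ab1), 38.8% (H2-Aa) and 38.4% (H2-Eb1), and H2-DMb1 and H2-DMa had 37.5% and 36.4%. The macrophage part was 63.6% for H2-DMa, 61.6% for H2-Eb1, 61.2% for H2-Aa, 54.8% for H2-Ab1 and 46.4% for H2-DMb1. It was 41.9% for H2-Oa, 36.3% for Cd74, 19.4% for H2-DMb2, 13.9% for H2-Ob and 0% for Ciita. The B cell part thus exceeded the macrophage part in 5 of the 10 members, in 7 when the B cell sum was cut to 4 markers, and in 6 when the macrophage sum was cut to C1qa, C1qb and C1qc. With the 4 B cell markers the macrophage part was 21.3% for Cd74, 28.0% for H2-Oa, 4.41% for H2-DMb2 and 0% for H2-Ob, so that these shares depend on the markers summed. The r squared of the fit was 0.62 for Ciita and 0.85 to 0.97 for the others.

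For H2-DMb2, H2-Oa and H2-Ob a share fixed over all libraries ran above the data where B cell markers were low. In the 10 libraries the fit gave mean levels of 12.2, 8.22 and 11.2 CPM for them, and the observed means were 1.76, 0.946 and 3.34 CPM. For H2-Aa and H2-DMb1 fitted and observed means lay close together, at 365 and 329 CPM and at 20.02 and 20.65 CPM. The macrophage parts of the first 3 genes are therefore larger in the fit than the levels seen in these 10 libraries. This also held for H2-DMa (fitted macrophage part 29.2 CPM, observed mean 21.4 CPM), H2-Aa (357 and 329 CPM) and H2-Eb1 (254 and 239 CPM). For H2-Ab1, Cd74 and H2-DMb1 the fitted macrophage part was below the observed mean. Ciita had no macrophage part, and its fitted total was 3.89 CPM against 2.19 CPM observed.

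**Figure D4:**
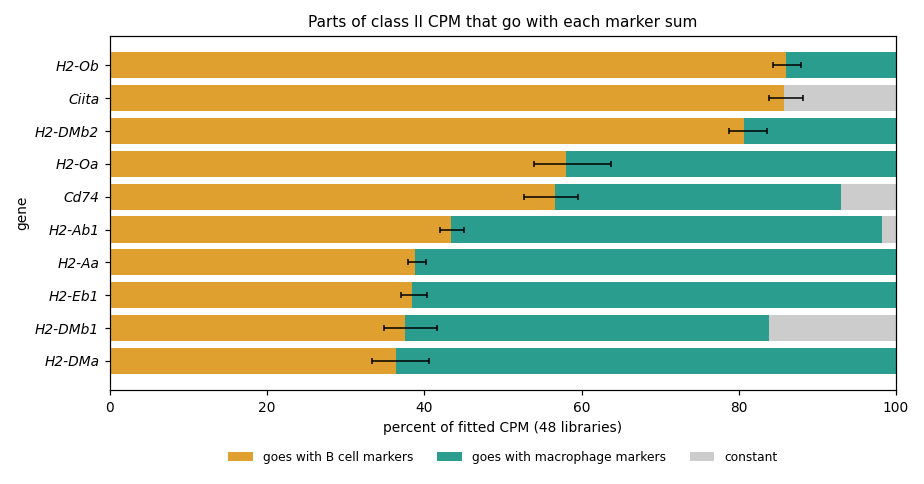
Share of the fitted mean CPM of each class II gene that scales with summed B cell markers, with summed macrophage markers or with neither (percent, non-negative fit over 48 libraries), with bars for the range of the B cell share when each library is left out. H2-Ob, Ciita and H2-DMb2 are at 80.6% to 86.1% on the B cell sum, and H2-Aa, H2-Eb1 and H2-DMa are at 61.2% to 63.6% on the macrophage sum.

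At 4 p.m. the B cell part of the fitted H2-Aa level was 43.8% in ad-lib and 7.95% in TAN mice, and that of H2-Ob was 88.4% and 45.7%. In TAN mice the B cell and macrophage parts of H2-Ob were 9.09 and 10.8 CPM, against an observed mean of 12.1 CPM. Its share there thus rests on a fit that ran above the data. The 4 p.m. comparison was accordingly refitted with the scores as covariates. With the B cell score the members' log2 fold changes at 4 p.m. lay between -0.39 and 0.09, with the macrophage score between -0.68 and -3.46, and with both between -0.42 and 0.34. In each of these fits 0 members were called, and with the B cell score, alone or with the other, 0 of all genes were called at 4 p.m. Diet at 4 p.m. and the B cell markers nearly coincide, so that an effect of TAN on these genes beyond the marker levels cannot be told apart from them in 8 libraries.

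**Figure D5:**
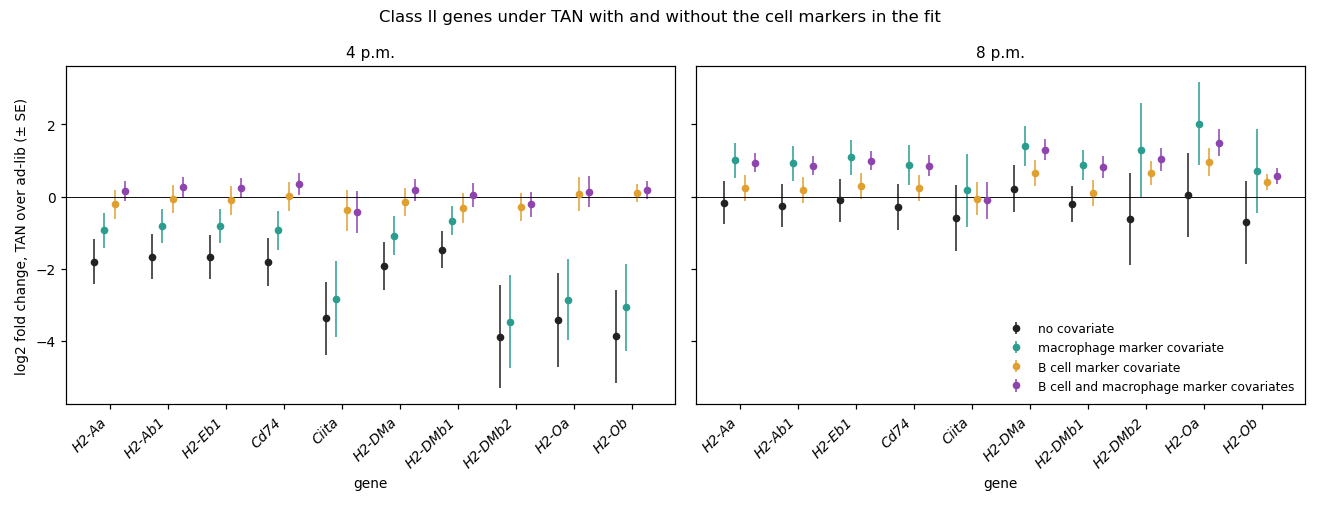
Log2 fold change of TAN over ad-lib with its SE for each class II gene, in 1 panel at 4 p.m. and in the other at 8 p.m., without covariates and with the B cell score, the macrophage score or both in the model. At 4 p.m. the values run from -1.48 to -3.88 without covariates and from -0.42 to 0.34 with both scores, and at 8 p.m. from 0.58 to 1.49 with both scores except for Ciita.

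At 8 p.m. the picture with both covariates differed. The log2 fold changes there were 0.58 to 1.49 in 9 members and -0.11 for Ciita. H2-DMa at 1.302, H2-DMb2 at 1.03 and H2-Oa at 1.49 were called higher in TAN mice (adjusted p under 0.05 and above 1 on the log2 scale), 3 of 10 members, against 5.78% of all genes called higher in the same fit. The macrophage measure itself depended on its scale at 8 p.m. The mean log2 CPM that enters the fit was 5.77 ± 0.22 in ad-lib and 4.94 ± 0.37 in TAN libraries, whereas the summed CPM was 1744 ± 322 and 2044 ± 1018 (SD, n = 4 each), so that the values with this score rest on a covariate that was lower in TAN on one scale only. The TAN replicates 1 and 2 at 8 p.m. carried the most T cell markers of the series, 2172 and 2279 CPM, and dendritic cell markers of 584 and 655 CPM. Whether these cells have a part in the 8 p.m. values was not tested.

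Pairs of members that work in the same complex did not always keep their proportions. The α and β chain of H2-A did: H2-Aa made up 52.5% to 61.1% of the H2-Aa plus H2-Ab1 level per kilobase in the 10 libraries poor in B cell markers (median 56.5%) and 51.2% to 61.0% in the other 38 (median 56.5%). The β chains of H2-DM did not. H2-DMb2 was 0.308% to 22.6% of the H2-DMb1 plus H2-DMb2 level in the 10 (median 6.00%) and 44.5% to 74.6% in the 38 (median 66.4%), with no overlap. How reads shared by the pair were counted is not given in the sources used here. H2-Oa relative to H2-DMa also parted, at 0% to 11.1% of their sum (median 6.30%) against 19.8% to 41.0% (median 33.8%). Correlations between members over the 48 libraries, taken within groups, ran from 0.74 for H2-DMb1 with H2-Ob to 0.996 for H2-Aa with H2-Eb1.

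Genes outside the list that were most like the members were ranked by the correlation of log2 CPM within groups over the 48 libraries. For the mean of H2-Aa, H2-Ab1, H2-Eb1 and Cd74 the nearest were Cd48 and Ly86 (surface proteins of leukocytes), Cd53 (a leukocyte tetraspanin), Unc93b1 (a chaperone of endosomal Toll-like receptors) and Ctss (cathepsin S, the protease that trims the invariant chain), each at r 0.97. For H2-Ob they included Btla (an inhibitory receptor of lymphocytes), Cd79b (a part of the B cell receptor complex) and Gpr174 (a receptor of lymphocytes), at r 0.98 to 0.99. All points share the libraries' differences in immune cell markers, and no test was made.

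Of the factors that act on class II genes or proteins, 15 were tested and 3 fell in TAN mice at 4 p.m., beside the 7.42% of all genes lower at that time. They were Nfya (a subunit of NF-Y, which binds the Y box), with a log2 fold change of -1.42 (adjusted p = 0.0134 by edgeR), Rfx5 (a subunit of RFX, which binds the X box), with -1.296 (edgeR adjusted p = 0.0192), and March1 (a ligase that sends surface class II to degradation), with -2.93 (edgeR adjusted p = 0.0220). Creb1, also an X box factor, had a log2 fold change of -0.89 (edgeR adjusted p = 0.0154), within the fold limit. The median of the 15 was -0.59. Rfx5 was also lower at 8 p.m., at -1.17 (edgeR adjusted p = 0.0316), the only one of the 15 called at a time when 7.03% of all genes were. Its slope on the B cell score was 0.17, as was that of Nfya.

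Of 13 antigen processing genes, Ctsd (cathepsin D, an endosomal protease) rose by 1.03 at 4 p.m. (edgeR adjusted p = 0.0157) and Ctse (cathepsin E) fell by 3.78 (edgeR adjusted p = 0.0404), with a median of -0.19. Lamp1, a lysosomal membrane protein, had 0.56 (edgeR adjusted p = 0.0280), within the fold limit. Ctsd was the gene of this list with the clearest mean effect over the 6 times, a rise of 0.55 (edgeR adjusted p = 0.00256). Its slope on the B cell score was -0.12. Ctss, by contrast, had slopes of 0.41 on the B cell and 0.95 on the macrophage score, both past the threshold.

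Of 8 genes of costimulation and of the T cell side of the contact, 3 fell at 4 p.m. Cd80, a costimulatory ligand, had a log2 fold change of -2.15 (edgeR adjusted p = 0.0154), Icosl, the ligand of ICOS, of -2.42 (edgeR adjusted p = 0.0194) and Cd4, the T cell coreceptor for class II, of -4.22 (edgeR adjusted p = 0.0321). The median of the 8 was -2.47. Of 13 genes of class I presentation, which nearly all cells carry, 0 were called at 4 p.m. The median was -0.35, and the lowest adjusted p-values were those of H2-T23 (log2 fold change -0.99, edgeR adjusted p = 0.0762) and Nlrc5, the class I counterpart of Ciita (-1.32, edgeR adjusted p = 0.0855). At the same time, 7 of 12 B cell markers (median -4.30), 5 of 10 dendritic cell markers (median -2.44), 2 of 8 T cell markers (median -3.17), 2 of 6 lymph node stroma markers (median -3.20) and 1 of 12 macrophage markers (median -0.78) fell, against 7.42% of all genes, and 1 of 6 adipocyte markers rose.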

How the data were processed

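Per the labels and file headers, the authors selected poly-A RNA, sequenced paired-end Illumina reads and deposited raw read counts per gene for 48 libraries, without normalization, on GRCm38 gene models. The submitters' processing notes name TopHat 1.3.3, DESeq2 1.20.0, edgeR and limma, with builds mm9, mm10 and GRCm38. The counting tool and strandedness are not given in the sources used here. The series names a stromal vascular fraction as the material, and the paper whole sWAT. Deposited mean FPKM values per group were not used, and 0 columns of sample values were left out.

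Genes were kept by filterByExpr (minimum count 10) and scaled with TMM. Counts were fitted with edgeR 4.0.16 (quasi-likelihood, R 4.3.3) in 1 model of 12 groups of diet and time, with 36 residual degrees of freedom, and p-values were adjusted by Benjamini-Hochberg over all genes. A call needed an adjusted p under 0.05 and, at single times, a log2 fold change beyond 1. Marker scores are mean log2 CPM (prior count 2) of 12 genes each, and the markers were left out of the 19953 genes adjusted. Correlations used 100000 permutations. Fits that leave out a replicate reuse the dispersion trend of all 48. Fits without the 10 libraries poor in B cell markers, or without the 2 TAN libraries rich in T cell markers, estimated it anew. Of 1128 library pairs, 0 were identical. Replicate numbers did not pair libraries (residual correlation above 0.1 in 7 of 24 pairs, median 0.03). The 10 genes, the gene lists and the rule for naming genes (all members, the 2 lowest adjusted p per other list at 4 p.m., the 5 most correlated genes) were chosen with earlier results of these data known. Further genes were named where few were called, and a few genes are not reported here. Alternatives were DESeq2 1.42.0, limma voom (limma 3.58.1), RLE scaling, other filters, marker covariates, a replicate block, fits per time and leaving out libraries. The models were tested on simulated counts.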

Additional observations from a re-analysis of the deposited data

Results flagged for a closer look

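In a group of 4 libraries, a value was picked out where its gap to the nearest other exceeded the limit of Dixon's test (95% level) as a share of the group's range. This occurred in 10 of 120 groups of gene, diet and time. The genes were measured in the same libraries and move together, so the groups are not independent and no expected number is set beside the count. At 4 p.m. TAN replicate 3 stood above the other TAN libraries for H2-Eb1 (680.35 CPM, next 210.09), H2-DMa (59.557, next 17.02), H2-DMb2 (35.309, next 1.1347), H2-Oa (13.651, next 1.0376) and H2-Ob (36.974, next 4.7609). At 4 a.m. TAN replicate 2 was highest for H2-Aa (1378.6 CPM, next 1059.5), H2-Ab1 (934.45, next 711.41) and Cd74 (1970.9, next 1394.6). At 8 p.m. TAN replicate 4, which is poor in B cell markers, was lowest for Cd74 (291.88 CPM, next 1572.4). At 12 a.m. TAN replicate 1 was highest for H2-Oa (53.215 CPM, next 8.9712).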

How the results depend on the processing

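The 5 genes lower at 4 p.m. became 10 with DESeq2 or with unadjusted p, 9 with a separate fit per time and 1 with no filter on low counts. Without the 10 libraries poor in B cell markers (chosen after seeing the data), which leaves 1 TAN library at 4 p.m., the log2 fold changes ran from -0.50 to -2.34. The count was 0 with the B cell score, the macrophage score or both. Leaving out each library in turn gave 0 to 10. With the replicate number as a block it was 8, and the block lowered the count of positive macrophage slopes from 8 to 0. Of all genes, 1095 were called lower at 4 p.m. with the block and 1010 with the macrophage score, against 1482 in the main fit. Calls over all genes were not counted for DESeq2, a separate fit per time, no filter or single libraries left out. For slopes, the mean effect, effects between times and variation over time they were not counted under any other setting. Replicate numbers are names only here, with a median residual correlation of 0.03 (range -0.33 to 0.49) between same-numbered libraries. Macrophage slopes numbered 4 without the 10 libraries. At 8 p.m. 3 genes were higher with both scores. A mean effect was called in 2 genes without the 10 libraries. A TAN effect between times was called in 1 with limma voom and in 1 without the 2 TAN libraries rich in T cell markers. Variation over time in TAN was called in 1 with limma voom, in 7 with the macrophage score, and in 0 to 1 when libraries were left out. Log2 fold changes at 4 p.m. turned positive with both scores for H2-Aa (0.15), H2-Ab1 (0.26), H2-Eb1 (0.23), Cd74 (0.34), H2-DMa (0.17), H2-DMb1 (0.037), H2-Oa (0.14) and H2-Ob (0.18), and with the B cell score for Cd74 (0.0087), H2-Oa (0.068) and H2-Ob (0.0946). The cause was not tested. Of counts and marker differences under other settings, 216 stayed and 17 did not. A count stayed when it was within 1.5 times the main count. A marker difference between diets stayed when it passed on neither scale, also where its sign changed, as for B cell markers at 4 a.m. A total of 4 libraries per group and 1 to 94 counts of Ciita, H2-DMb2 and H2-Ob in libraries poor in B cells limit what could be detected.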
